A study of Mus musculus with 8 samples.

Results

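The genes described here are those that red blood cells use apart from the globins, measured in mouse hearts at embryonic day 9.5. Members were taken from a list of 30 gene symbols in 3 roles, with 7 erythroid regulators, 8 genes of heme and hemoglobin handling and 15 genes of the membrane skeleton and the blood group proteins. Of the 30, 29 were found among the 49315 genes of the count tables, and Ahsp was not analysed here.

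The hearts came from wild-type embryos and from embryos homozygous for Tbx20EH1Mut, an allele in which CRISPR editing replaced 2 amino acids (phenylalanine and serine by leucine and isoleucine) of the EH1 domain of TBX20, a T-box transcription factor of the heart. The allele came from edited founders that were bred to C57BL/6J mice for at least 3 generations, and the study used mice of both sexes. Each library was made from 3 pooled hearts, and there were 4 libraries per genotype. Whether blood was rinsed from the hearts is not given in the sources used here.

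Primitive red cells form in the yolk sac, enter the circulation once the heart beats, and mature in the blood while still nucleated. Their program is driven by the transcription factors GATA1 and KLF1 and by erythropoietin signaling. It fills the cell with hemoglobin, whose heme is made in 8 enzymatic steps between mitochondrion and cytosol, and builds a spectrin skeleton that is anchored to the membrane through ankyrin and band 3. Several genes of heme synthesis and of the membrane skeleton are used by most other cells too.

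Levels are given as CPM, that is counts per 1000000 counts of the library after TMM scaling, and differences are log2 fold changes of Tbx20EH1Mut over wild-type with their standard errors (SE). A gene was called where its p from the quasi-likelihood test of edgeR, adjusted over 17163 genes by the Benjamini-Hochberg method, was 0.05 or less. Totals were 33359322 to 49523086 counts in the wild-type libraries and 36250675 to 38357025 in the Tbx20EH1Mut libraries. Cardiomyocyte markers summed to between 29492 and 33070 CPM in the wild-type libraries and between 25618 and 33909 CPM in the mutant libraries. Of these 9 genes 1 was called lower and none higher by edgeR, and it was Myh6, the alpha myosin heavy chain, with 3858 ± 746 CPM in the wild-type against 1611 ± 194 CPM in the mutant hearts and no overlap (SD, n = 4, log2 fold change -1.26 ± 0.168, adjusted p = 8.66e-04). Tbx20 itself was at 353, 366, 379 and 371 CPM in wild-type replicates 1 to 4, against 215, 247, 289 and 316 CPM in mutant replicates 1 to 4 (log2 fold change -0.46 ± 0.133, adjusted p = 0.0273). This change of Tbx20 lost its call without wild-type replicate 3 or 4 or mutant replicate 1 or 2 (adjusted p of 0.0630 to 0.0726), with upper-quartile scaling (adjusted p = 0.0608) and with an offset for gene length (adjusted p = 0.0898). The substitution does not remove the transcript, so the level does not test the labels.

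Most red cell genes were lower in the Tbx20EH1Mut hearts. Of the 29 genes found, 28 could be tested, and 22 of these were called lower, against 15.3% of all genes tested. In this test no member was called higher, against 14.0% of all genes, and none was higher at an unadjusted p under 0.05 or was called higher by DESeq2 or limma-voom. A call with a log2 fold change of -1 or below was made for 15 members, against 4.16% of all genes. In 19 members the lowest wild-type library was above the highest mutant library, a pattern found in 15.7% of all genes. The median log2 fold change of the members was -1.49, and that of all genes tested was 0.0048. Of all called genes 52.1% were lower in the mutant, or 41.1% when upper-quartile scaling replaced TMM.

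The filter on low counts has to be read with these counts. Of the 28 members, 8 passed it only with the help of the wild-type libraries (Gata1, Gfi1b, Trim10, Epb42, Rhag, Kel, Ermap and Cldn13), so that a member absent from the mutant hearts had to differ to be tested. The other 20 reached the filter's level of 0.264 CPM in every mutant library. Of those 20, 14 were called lower, 11 had no overlap between the genotypes, and the median log2 fold change was -0.78.

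**Figure D1:**
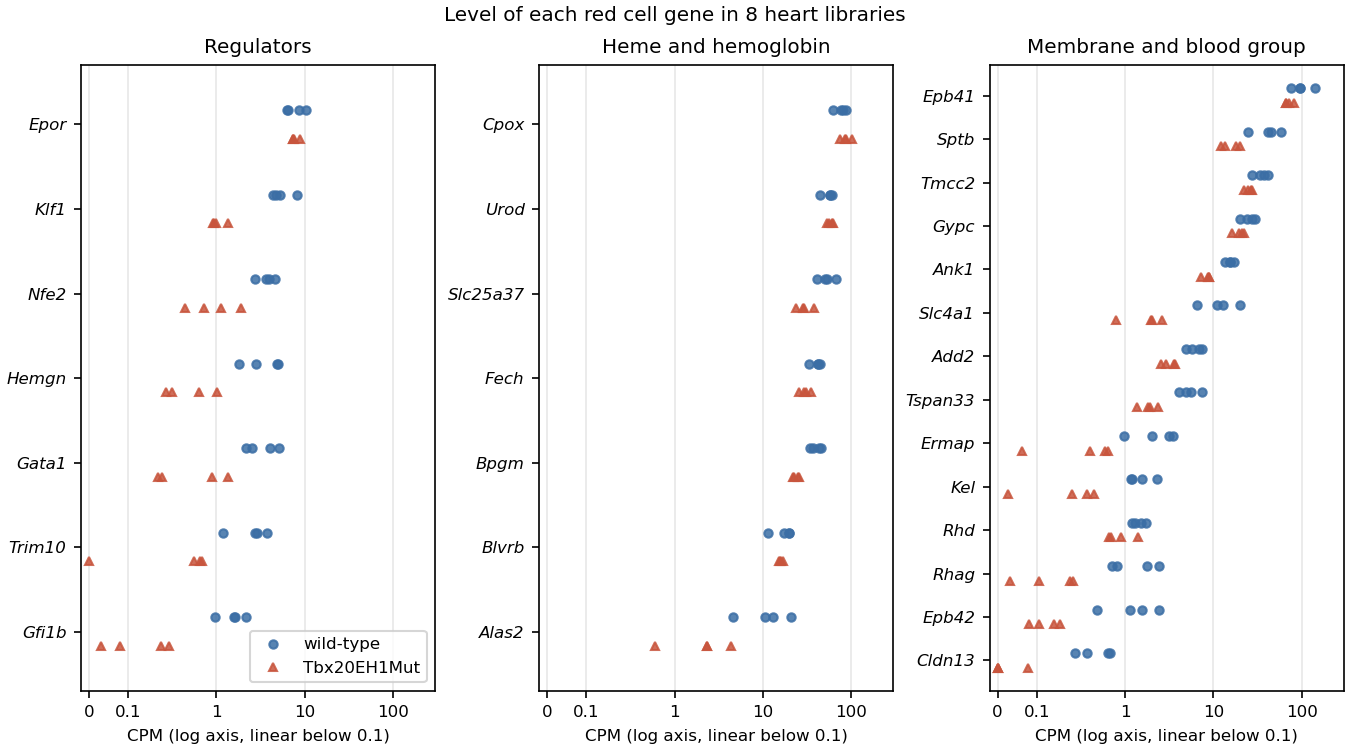
Level of each of the 28 tested red cell genes in CPM (x axis, logarithmic above 0.1 and linear below), in 3 panels by role, with 1 circle per wild-type library and 1 triangle per Tbx20EH1Mut library (n = 4 each). The triangles lie left of all circles in 19 genes, while the genotypes overlap in the other 9, among them Epor, Cpox, Urod and Blvrb.

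By role, the counts were as follows. Among the regulators 6 of 7 were called lower, with a median log2 fold change of -2.43. Among the heme and hemoglobin genes it was 4 of 7 tested, with a median of -0.42. Among the membrane and blood group genes it was 12 of 14 tested, with a median of -1.49. Restricted to genes that passed the filter in every mutant library, it was 3 of 4 regulators with a median of -2.13, the same 7 heme genes, and 7 of 9 membrane and blood group genes with a median of -0.86. Summed over the role, levels were 28.7 ± 8.40 CPM (SD, n = 4) in wild-type and 11.7 ± 2.10 CPM in mutant hearts for the regulators, 296 ± 38.9 and 249 ± 13.4 CPM for the heme genes, and 253 ± 48.2 and 150 ± 12.2 CPM for the membrane genes. All 4 wild-type libraries were above every mutant library in the regulator and membrane sums, and 3 of 4 in the heme sum.

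Another division ran across the roles, but its list was drawn up with earlier results of these data known. The contrast is thus a description and no test. The genes outside that list are not all particular to red cells either, since Sptb is also used in muscle. Cpox, Urod, Fech, Blvrb, Epb41 and Gypc are expressed in many cell types, and of these 6 genes 2 were called lower, with a median log2 fold change of -0.22. Of the other 22 tested members 20 were called lower, with a median of -2.36, but these 22 include all 8 members that passed the filter only with the wild-type libraries. Of the 14 that passed in the mutant libraries as well 12 were called lower, with a median of -1.19. The 2 without a call among these 22 were Epor and Rhd. Fewer red cells in the sample and less of these messages per red cell cannot be told apart in RNA from bulk hearts.

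**Figure D2:**
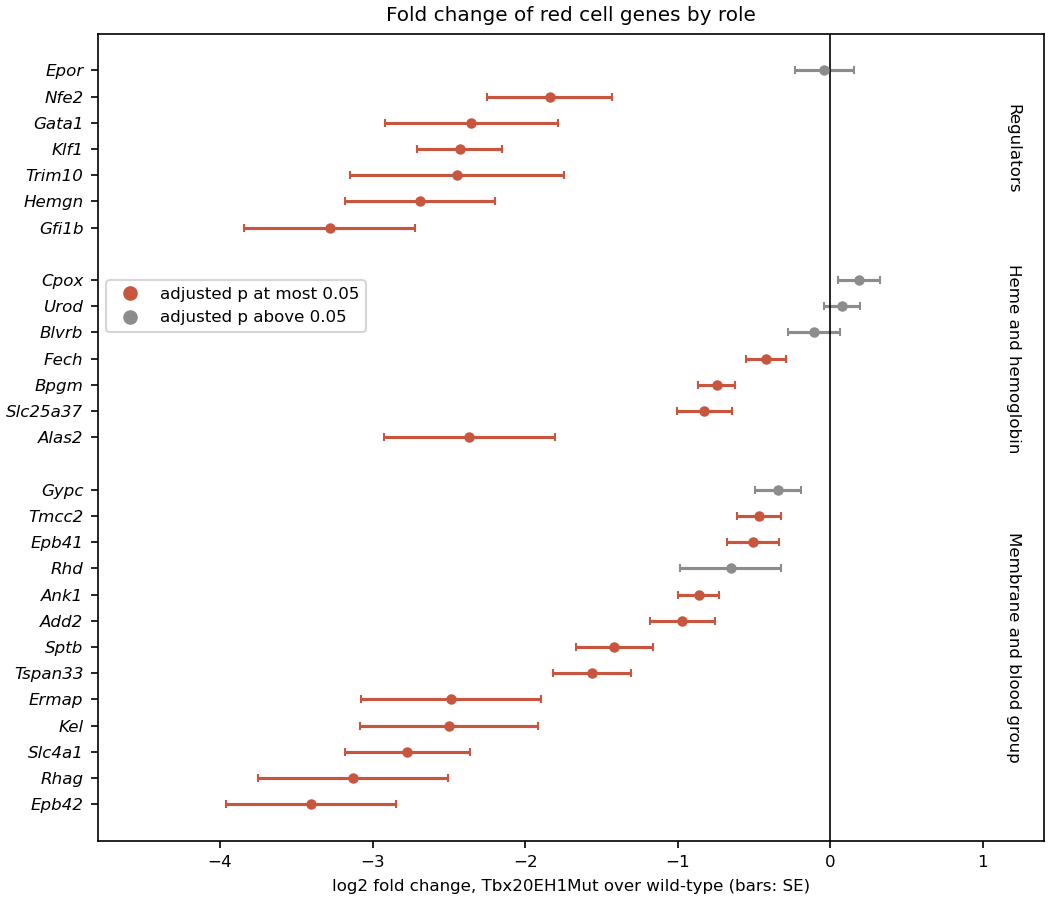
Log2 fold change of Tbx20EH1Mut over wild-type (x axis, bars are SE from edgeR's fit over 4 libraries per genotype) for 27 tested red cell genes, grouped by role and sorted within it, with called genes in red and the others in gray. Cldn13 is left out because the mutant libraries held 3 counts of it. The fold changes run from -3.40 for Epb42 to 0.19 for Cpox.

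Of the regulators, Klf1 encodes the zinc finger factor that activates globin and membrane genes (chr8:84901928-84905291, GRCm38). It was measured at 4.70, 4.36, 5.22 and 8.24 CPM in wild-type replicates 1 to 4, against 0.983, 1.35, 0.906 and 0.927 CPM in the mutant replicates. The genotypes did not overlap, and Klf1 fell 5.40-fold (log2 fold change -2.43 ± 0.278, adjusted p = 3.90e-04). Klf1 was the member with the smallest adjusted p.

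Gata1, the zinc finger factor that red cells and megakaryocytes need (chrX:7959260-7978071), stood at 2.18, 2.54, 4.08 and 5.12 CPM in wild-type and 1.35, 0.239, 0.219 and 0.900 CPM in mutant libraries. Mutant replicates 1 and 4 were well above replicates 2 and 3, yet all were under the wild-type libraries, and the log2 fold change was -2.35 ± 0.568 (adjusted p = 0.0133). Nfe2, the p45 subunit of a leucine zipper factor that binds the globin control region, had 2.73, 3.68, 3.96 and 4.62 CPM in wild-type and 1.14, 0.716, 0.437 and 1.88 CPM in mutant libraries. Its log2 fold change was -1.84 ± 0.408 (adjusted p = 0.00945).

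Gfi1b encodes a repressor of the zinc finger class that acts in red cells and megakaryocytes (chr2:28609450-28621982). Its levels were 0.970, 1.63, 1.59 and 2.18 CPM in wild-type and 0.233, 0.292, 0.0312 and 0.0794 CPM in mutant libraries, a log2 fold change of -3.28 ± 0.564 (adjusted p = 0.00294), which was the steepest fall among the regulators. Hemgn, a nuclear protein of blood cells, was at 1.79, 2.81, 5.0 and 4.86 CPM and 1.01, 0.265, 0.312 and 0.636 CPM in the same order, and its log2 fold change was -2.69 ± 0.492 (adjusted p = 0.00384). Trim10, a RING finger protein of terminal red cell differentiation, was at 1.18, 2.85, 2.71 and 3.73 CPM and 0.647, 0.557, 0 and 0.689 CPM, with no count in mutant replicate 3.

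Trim10 was called with a log2 fold change of -2.45 ± 0.701 (adjusted p = 0.0269), but the call needed nearly the full set of libraries. It was lost without wild-type replicate 2, 3 or 4 or mutant replicate 2 or 4, at adjusted p of 0.0507 to 0.0791, while the log2 fold change stayed between -2.69 and -2.04.

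Epor, the receptor for erythropoietin (chr9:21958897-21963506), was the regulator without a call. It was at 6.52, 6.25, 8.72 and 10.4 CPM in wild-type and 8.80, 7.48, 7.37 and 7.39 CPM in mutant libraries. The 4 mutant libraries lay inside the wild-type range, and the log2 fold change was -0.04 ± 0.194 (adjusted p = 0.891). Its sign turned with upper-quartile scaling, to 0.043, and without wild-type replicate 4, to 0.11. Per kilobase of exon, Epor stood at 4.01 ± 0.990 CPM per kilobase (RPKM) in wild-type hearts and 3.90 ± 0.349 RPKM in mutant hearts (SD, n = 4). Klf1 stood at 3.68 ± 1.16 and 0.681 ± 0.137 RPKM. The receptor and the factor were thus at like levels per length in wild-type hearts and at unlike levels in mutant hearts.

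The start regions of these genes bear on the group because GATA factors bind short words with GATA at their center. The words searched were AGATAA, its form AGATAG that ends in G, its form TGATAA that starts with T, and TGATAG with both changes. RefSeq windows of GRCm38.p6, from 250 bases before to 50 bases after each start, were searched on both strands, and overlapping matches were each counted. A window was given for 22 of the 29 genes found, and Slc4a1, Ank1, Nfe2, Slc25a37, Fech, Gypc and Cldn13 had none. The 120 bases before the start are shown for 4 genes that fell (Klf1, Gfi1b, Rhag and Alas2), for Kel, which fell and holds a pair of matches close to its start, and for Epor and Cpox, which were not called, each 5′ to 3′ on the gene's strand with the GATA matches, on either strand, in capitals. In Cpox 2 matches overlap.
Klf1, chr8:84901862-84901981, plus strand: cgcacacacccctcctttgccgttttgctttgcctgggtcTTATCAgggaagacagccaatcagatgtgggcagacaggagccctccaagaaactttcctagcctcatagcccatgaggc
Gfi1b, chr2:28621983-28622102, minus strand: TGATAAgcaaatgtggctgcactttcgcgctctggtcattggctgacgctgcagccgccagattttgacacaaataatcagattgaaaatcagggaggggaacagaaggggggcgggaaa
Rhag, chr17:40811029-40811148, plus strand: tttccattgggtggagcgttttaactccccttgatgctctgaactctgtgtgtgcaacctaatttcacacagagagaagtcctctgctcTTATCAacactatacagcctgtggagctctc
Alas2, chrX:150547297-150547416, plus strand: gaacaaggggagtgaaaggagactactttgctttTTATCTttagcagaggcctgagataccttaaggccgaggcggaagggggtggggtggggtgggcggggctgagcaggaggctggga
Kel, chr6:41704326-41704445, minus strand: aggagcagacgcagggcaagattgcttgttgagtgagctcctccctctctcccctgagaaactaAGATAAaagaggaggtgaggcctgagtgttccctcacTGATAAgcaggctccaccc
Epor, chr9:21963577-21963696, minus strand: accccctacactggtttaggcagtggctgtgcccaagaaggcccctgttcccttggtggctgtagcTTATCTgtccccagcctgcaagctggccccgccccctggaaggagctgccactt
Cpox, chr16:58670088-58670207, plus strand: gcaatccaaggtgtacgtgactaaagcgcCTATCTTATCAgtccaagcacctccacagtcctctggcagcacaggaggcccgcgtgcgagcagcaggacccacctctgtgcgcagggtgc

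A GATA match lay within the 300 bases of 18 of the 22 genes. Counted by window, since some genes have several starts, it was 19 of 27 windows or 70.4%, against 29.8% of all 32851 windows in the table. A match was present in 13 of 16 genes called lower and in 4 of 5 tested genes that were not called. The KLF1 letters CCNCNCCC were found in 66.7% of the members' windows and 49.5% of all windows, and in 10 of 16 genes called lower against 5 of 5 tested genes that were not called. The letters TGAGTCA, which NFE2 binds, were found in 7.41% and 5.20%. A match describes the sequence and does not show that a factor binds there.

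In the heme pathway, the fold change farthest from 0 was that of the red cell enzyme of the first step. Alas2 makes the first intermediate in red cells (chrX:150547375-150570638) and was measured at 4.58, 10.6, 13.2 and 21.1 CPM in wild-type replicates 1 to 4, against 4.32, 2.33, 0.593 and 2.30 CPM in mutant replicates 1 to 4. Wild-type replicate 1 was only slightly above mutant replicate 1, and the other wild-type libraries stood clear of the mutant range. Alas2 fell 5.17-fold in the means (log2 fold change -2.36 ± 0.558, adjusted p = 0.0120). Of its exon bases 12.9% overlap Apex2 on the other strand, and the strand setting of the counting is not given in the sources used here, so part of its counts is uncertain.

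Alas1, which serves the same step in other cells, was at 33.3, 35.5, 37.7 and 43.3 CPM in wild-type and 20.7, 22.2, 26.2 and 24.9 CPM in mutant libraries, without overlap (log2 fold change -0.67 ± 0.124, adjusted p = 0.00399). Alad, the enzyme of the next step, was at 52.5 ± 6.50 CPM and 34.1 ± 1.93 CPM (SD, n = 4), with a log2 fold change of -0.62 ± 0.114 (adjusted p = 0.00389). Both kept their calls in each fit that left out a library and in each other alternative run.

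The middle of the pathway showed smaller differences. Uros had a log2 fold change of -0.42 ± 0.141 (adjusted p = 0.0461), and among the 8 fits that left out a library Uros kept its call only without wild-type replicate 2 (adjusted p = 0.0158, against 0.0639 to 0.122 in the others). Urod was at 58.2, 44.8, 58.1 and 60.3 CPM in wild-type and 56.4, 53.5, 62.1 and 61.4 CPM in mutant libraries, with wild-type replicate 2 below all others, and its log2 fold change was 0.08 ± 0.119 (adjusted p = 0.649). Cpox was at 62.9, 77.2, 88.1 and 80.8 CPM and 75.2, 88.6, 104 and 84.5 CPM, with mutant replicate 3 the highest of the 8, and its log2 fold change was 0.19 ± 0.136 (adjusted p = 0.317). Ppox had a log2 fold change of -0.04 ± 0.132 (adjusted p = 0.858). Cpox and Urod were the members with the highest levels per length in wild-type hearts, at 24.3 ± 3.32 and 21.4 ± 2.74 RPKM.

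Fech, which inserts iron into the ring in the last step, was at 33.4, 42.0, 42.2 and 44.1 CPM in wild-type and 25.9, 30.6, 35.2 and 29.2 CPM in mutant libraries. Wild-type replicate 1 was below mutant replicate 3, so that the genotypes overlapped. It was called lower (log2 fold change -0.42 ± 0.131, adjusted p = 0.0368), and the call held only without wild-type replicate 1 or mutant replicate 3 among the fits that left out a library. In the other 6 such fits the adjusted p was 0.0630 to 0.106. The call of Fech was also lost with upper-quartile scaling (log2 fold change -0.33, adjusted p = 0.0652).

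**Figure D3:**
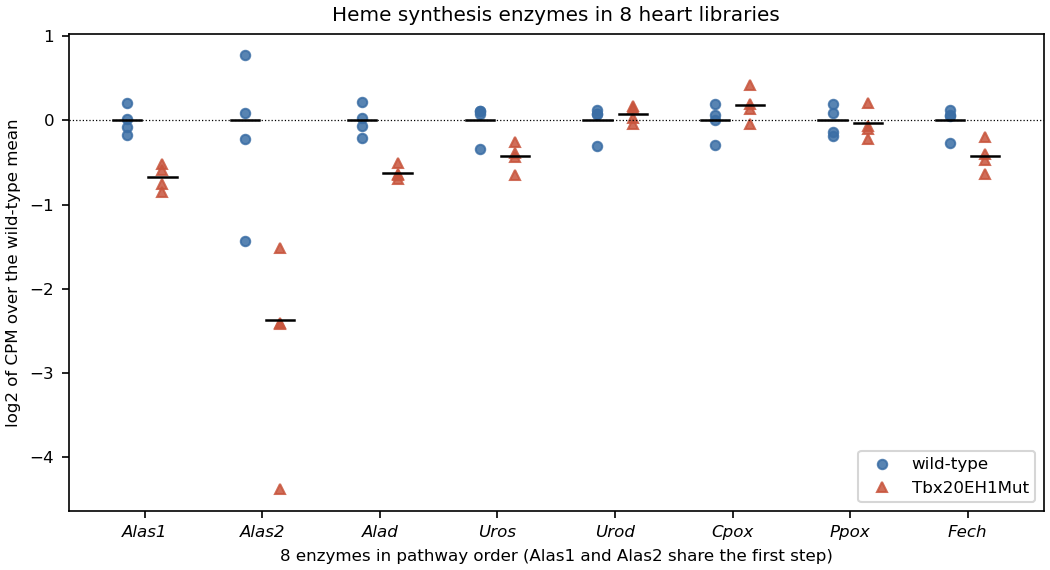
Level of 8 enzymes of heme synthesis in pathway order (x axis), with each library shown as the log2 of its CPM over the wild-type mean (y axis), with circles for wild-type, triangles for Tbx20EH1Mut and black lines at the log2 of the group means (n = 4 each). The mutant libraries of Alas1, Alas2 and Alad lie under all wild-type libraries, while both genotypes mix at Urod, Cpox and Ppox.

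Iron reaches the last step through mitoferrin 1, the product of Slc25a37. It was at 40.8, 51.0, 52.9 and 67.2 CPM in wild-type and 38.4, 28.2, 24.0 and 29.1 CPM in mutant libraries, with mutant replicate 1 close under the lowest wild-type library (log2 fold change -0.83 ± 0.180, adjusted p = 0.00880). Bpgm makes the metabolite that lowers hemoglobin's oxygen affinity. It was at 37.0, 34.4, 45.8 and 43.2 CPM and 22.2, 22.8, 25.5 and 25.3 CPM, with both genotypes tight and well apart (log2 fold change -0.74 ± 0.122, adjusted p = 0.00238). Blvrb, a reductase of heme breakdown, was at 17.1 ± 3.92 CPM and 15.9 ± 0.686 CPM (SD, n = 4), with a log2 fold change of -0.11 ± 0.172 (adjusted p = 0.669).

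Among the membrane proteins, the messages of band 3 and protein 4.2 fell steeply. Slc4a1 encodes band 3, the anion exchanger that holds the skeleton to the membrane (chr11:102348824-102366203). It was at 6.46, 11.1, 12.7 and 20.2 CPM in wild-type replicates 1 to 4, against 2.59, 2.02, 0.781 and 1.96 CPM in mutant replicates 1 to 4. The lowest wild-type library was above the highest mutant library, and the fall was 6.87-fold (log2 fold change -2.77 ± 0.409, adjusted p = 0.00141). Epb42, the protein 4.2 that binds band 3, was at 0.485, 1.57, 1.13 and 2.42 CPM and 0.181, 0.0796, 0.156 and 0.106 CPM (log2 fold change -3.40 ± 0.557, adjusted p = 0.00234). No mutant library reached the filter's level for Epb42.

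Other skeleton genes had fold changes nearer to 0. Sptb, the beta spectrin of red cells and muscle, was at 24.9, 58.4, 41.1 and 45.5 CPM in wild-type and 20.2, 17.9, 12.2 and 13.5 CPM in mutant libraries, with wild-type replicate 2 the highest (log2 fold change -1.41 ± 0.252, adjusted p = 0.00345). Ank1, the ankyrin that ties spectrin to band 3, was at 13.5, 15.6, 15.4 and 17.2 CPM and 8.77, 8.94, 7.25 and 8.95 CPM, and each genotype varied little (log2 fold change -0.86 ± 0.137, adjusted p = 0.00204). Add2, the beta adducin that caps the skeleton's actin, was at 6.21 ± 1.14 CPM and 3.17 ± 0.549 CPM (SD, n = 4), without overlap, with a log2 fold change of -0.97 ± 0.212 (adjusted p = 0.00886).

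Epb41 encodes protein 4.1, which joins spectrin and actin in many cell types. It was at 76.7, 140.1, 95.7 and 95.5 CPM in wild-type and 81.7, 71.1, 67.1 and 67.2 CPM in mutant libraries, where mutant replicate 1 was above wild-type replicate 1. Its adjusted p of 0.0499 was just under the threshold (log2 fold change -0.51 ± 0.173), and among the 8 fits that left out a library the call held only without wild-type replicate 1, with adjusted p of 0.0604 to 0.124 in the others. Wild-type replicate 2 was far above the other 3 wild-type libraries, and without it the log2 fold change was -0.30 (adjusted p = 0.0869). Gypc, the glycophorin that binds protein 4.1, was at 27.4, 19.9, 24.1 and 29.3 CPM and 16.3, 21.3, 22.3 and 19.4 CPM and was not called (log2 fold change -0.34 ± 0.152, adjusted p = 0.111). Without wild-type replicate 2, the lowest of its group, Gypc passed the threshold (log2 fold change -0.43, adjusted p = 0.0458).

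Of the 7 blood group and surface genes tested 6 were called lower, but Rhag, Kel, Ermap and Cldn13 passed the filter only with the wild-type libraries. Rhag, the Rh-associated glycoprotein (chr17:40811126-40840754), was at 0.819, 0.712, 1.75 and 2.44 CPM in wild-type and 0.259, 0.106, 0.0312 and 0.238 CPM in mutant libraries (log2 fold change -3.13 ± 0.624, adjusted p = 0.00576). Its partner Rhd, the Rh blood group protein, was at 1.18, 1.30, 1.53 and 1.72 CPM and 0.906, 0.663, 1.41 and 0.689 CPM. Mutant replicate 3 was within the wild-type range for Rhd, while the same library was the lowest of all 8 for Rhag, and Rhd was not called (log2 fold change -0.65 ± 0.329, adjusted p = 0.155). Whether the changes of Rhag and Rhd differ was not tested.

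Kel, the Kell blood group protease (chr6:41686330-41704339), was at 1.18, 1.18, 1.57 and 2.27 CPM in wild-type and 0.440, 0.0265, 0.250 and 0.371 CPM in mutant libraries (log2 fold change -2.50 ± 0.583, adjusted p = 0.0115). Ermap, the protein of the Scianna blood group, was at 0.970, 2.01, 3.13 and 3.49 CPM and 0.595, 0.637, 0.0625 and 0.397 CPM (log2 fold change -2.49 ± 0.589, adjusted p = 0.0123). In both genes every wild-type library was above every mutant library. Cldn13, a claudin found in mouse blood-forming tissue, had 90 counts over the wild-type libraries and 3 over the mutant libraries, all 3 in replicate 1. Scaled for library size that is a ratio of 24.6, with an exact 95% interval of 8.15 to 121 that covers counting error only.

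Icam4, the adhesion protein of the LW blood group, had 0 counts in all 8 libraries, where 3 counts would be 0.0597 to 0.0937 CPM depending on the library. All its 1110 exon bases lie under Gm47079 on the other strand, so a level of Icam4 cannot be read from these tables. Tspan33, a tetraspanin of red cell precursors, was at 5.50 ± 1.46 CPM and 1.86 ± 0.391 CPM (SD, n = 4), without overlap (log2 fold change -1.56 ± 0.258, adjusted p = 0.00245). Tmcc2, a membrane protein with coiled coils, was at 27.3, 41.5, 33.6 and 37.4 CPM and 26.9, 27.6, 24.5 and 22.0 CPM, with mutant replicate 2 just above wild-type replicate 1. Tmcc2 was called lower (log2 fold change -0.47 ± 0.144, adjusted p = 0.0349), and among the fits that left out a library the call held only without wild-type replicate 1 or mutant replicate 2 (adjusted p of 0.0570 to 0.103 in the others).

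The libraries of 1 genotype also differed among themselves in an order that many members shared. Over the 28 members with counts, wild-type replicate 4 was the highest of its group in 21, and wild-type replicate 1 the lowest in 19. In the mutant group, replicate 1 was the highest in 14 members and replicate 3 the lowest in 16. The globin genes, which are no members, summed to 2059, 1860, 3940 and 4942 CPM in wild-type replicates 1 to 4, against 1107, 852, 368 and 975 CPM in mutant replicates 1 to 4. Wild-type replicate 4 and mutant replicate 1 thus held the most globin of their groups, and mutant replicate 3 the least, while in wild-type the least was in replicate 2 and not in replicate 1. The members called lower numbered 18 without wild-type replicate 3 or 4 or mutant replicate 4, and 19 to 22 without any other library, and over the 8 fits that left out a library the median log2 fold change ranged from -1.64 to -1.36.

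Counted against the globins of the same library, the members fell into 3 sets. Per 1000 globin counts, 4 members were higher in every wild-type library than in any mutant library (Gfi1b, Slc4a1, Rhag and Cldn13), a pattern of 0.0757% of all genes tested. That share is low because of the measure, since globins were lower in every mutant library and a gene had to fall further than they did. No enrichment of the members is read from it. All of these 4 but Slc4a1 passed the filter only with the wild-type libraries. Gfi1b was at 0.548 ± 0.220 in wild-type and 0.180 ± 0.124 in mutant libraries (SD, n = 4), and Slc4a1 at 4.10 ± 1.31 and 2.21 ± 0.172. Another 13 members overlapped between the genotypes, among them Klf1 at 1.90 ± 0.493 and 1.47 ± 0.731, Alas2 at 3.88 ± 1.47 and 2.66 ± 0.956, and Gata1 at 1.13 ± 0.162 and 0.754 ± 0.405.

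The other 11 members were higher in every mutant library by this measure (Epor, Slc25a37, Cpox, Urod, Fech, Blvrb, Bpgm, Add2, Gypc, Rhd and Tmcc2). Of all genes tested 72.6% were so, and nothing particular to the 11 genes is read from it. Epor was at 2.71 ± 0.643 in wild-type and 11.1 ± 5.98 in mutant libraries, and Cpox at 27.7 ± 10.9 and 135 ± 98.8. Mutant replicate 3, with the fewest globin counts, was far above the other libraries for these genes. The sets describe these 8 libraries and were not tested, and all members of a library share its globin count.

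**Figure D4:**
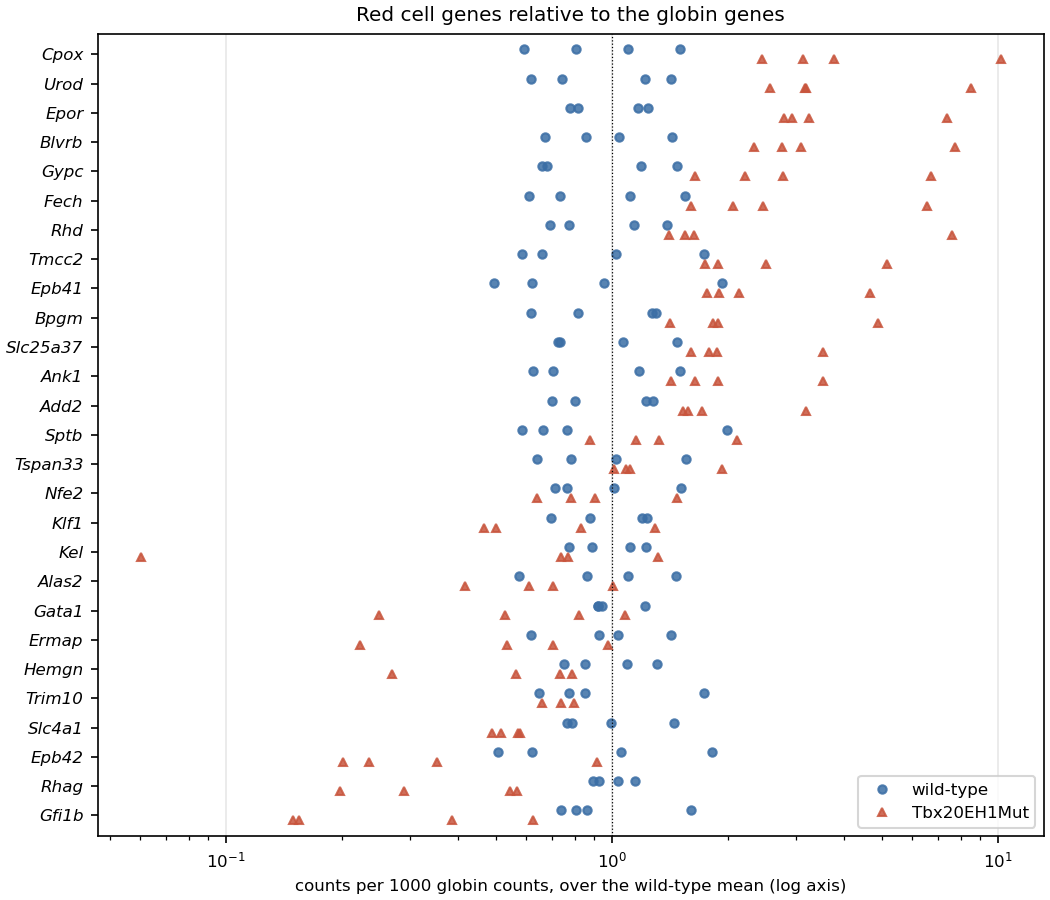
Counts per 1000 globin counts for 27 red cell genes with counts, each library over the wild-type mean of the gene (x axis, logarithmic), with circles for wild-type and triangles for Tbx20EH1Mut (n = 4 each), sorted by the mutant mean. Cldn13 is left out, and the 0 of Trim10 in mutant replicate 3 is off the axis. Gfi1b, Rhag and Slc4a1 lie left of the wild-type libraries, and Cpox, Urod and Epor lie right of them.

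Some markers of other cells differed between the genotypes as well, and the counts below stand against 14.0% of all genes tested that were called higher. Foregut epithelium markers summed to between 189 and 290 CPM in wild-type and between 652 and 873 CPM in mutant libraries, and 5 of 8 were called higher, with Krt8 the most abundant (log2 fold change 1.61, adjusted p = 4.59e-05). Most of the sums came from Krt8 (means of 146 and 444 CPM) and Krt18 (67.3 and 223 CPM). Epcam was uneven, at 75.3, 67.1, 10.7 and 27.5 CPM in the mutant libraries, and overlapped the wild-type libraries. Cdh1, Sox2 and Cldn6 were not called. Endothelial markers summed to between 558 and 686 CPM and between 736 and 808 CPM, and 5 of 8 were called higher, with Kdr among the most abundant (log2 fold change 0.68, adjusted p = 0.0119). Liver and visceral endoderm markers summed to between 7.31 and 19.5 CPM in wild-type libraries, against 40.9, 172, 13.6 and 10.2 CPM in mutant replicates 1 to 4. The genotypes thus overlapped, and the highest mutant sum was that of replicate 2. Afp was at 19.7, 93.7, 1.81 and 0.318 CPM in the mutant libraries, and 2 of 7 tested liver and visceral endoderm markers were called higher. The part of these other cells in the fall of the red cell genes was not tested.

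Other blood cells were followed by their markers too. Macrophage and leukocyte markers summed to between 8.85 and 10.6 CPM in wild-type and between 6.99 and 9.53 CPM in mutant libraries, 5 of 11 passed the filter, and Mrc1 was the most abundant at 2.96 ± 0.337 CPM and 3.04 ± 0.942 CPM (SD, n = 4). Ptprc and Adgre1, which define leukocytes and macrophages, were at 0 to 0.119 CPM in all libraries. Megakaryocyte and platelet markers, a lineage that also uses Gata1, Nfe2 and Gfi1b, summed to between 43.0 and 69.3 CPM and between 44.8 and 77.6 CPM, with most from Vwf and Itga2b. Blood progenitor markers, of which Meis1 and Cd34 are shared with other heart cells and were the most abundant, summed to between 161 and 208 CPM and between 192 and 203 CPM. Of these, 1 of 6 tested was called higher, which is near the 14.0% of all genes tested and is not read as a result about the list. It was Kit, a receptor also used by other cells (log2 fold change 1.46 ± 0.180, adjusted p = 5.70e-04).

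A wider set of red cell genes, listed by the same roles, was examined in the same fit. Of 71 genes 70 were tested, 25 were called lower and 7 higher, against 15.3% lower and 14.0% higher over all genes, and the median log2 fold change was -0.19. Slc14a1, Kcnn4 and Pklr, all called lower, passed the filter only with the wild-type libraries. With at least 10 counts required in every library 67 were tested and 22 were called lower. Without wild-type replicate 4 the lower calls numbered 14, and without mutant replicate 4 they numbered 15.

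By role, 11 of 23 further genes of heme and iron handling were called lower and 1 higher. The steepest of these was Steap3, the ferrireductase that prepares iron for uptake, at 7.37, 5.68, 7.13 and 8.70 CPM in wild-type and 1.50, 1.17, 2.53 and 1.64 CPM in mutant libraries (log2 fold change -2.08 ± 0.266, adjusted p = 7.03e-04). Slc11a2, the iron transporter of endosomes, had a log2 fold change of -0.93 ± 0.122 (adjusted p = 8.24e-04), and Abcb10, a mitochondrial transporter that binds mitoferrin 1, one of -0.90 ± 0.127 (adjusted p = 0.00121). None of the 3 overlapped between the genotypes.

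Of 21 further membrane and surface genes 8 were called lower and 3 higher. Piezo1, a mechanically gated channel, was at 10.2, 131, 43.2 and 47.1 CPM in wild-type and 22.0, 18.4, 4.22 and 8.85 CPM in mutant libraries and rested on wild-type replicate 2. Its log2 fold change was -2.11 ± 0.691 (adjusted p = 0.0435), and without that library it was -1.31 (adjusted p = 0.136). Its call held only without wild-type replicate 1 among the fits that left out a library. Kcnn4, a calcium-gated potassium channel that passed the filter only with the wild-type libraries, had a log2 fold change of -2.01 ± 0.675 (adjusted p = 0.0473) and among the fits that left out a library kept its call only without wild-type replicate 1 or mutant replicate 1 (adjusted p of 0.0542 to 0.143 in the others).

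Of 11 tested red cell enzymes 4 were called lower and 1 higher. Pklr, the pyruvate kinase of liver and red cells, also passed only with the wild-type libraries. It was at 1.61, 2.28, 2.31 and 4.47 CPM in wild-type and 0.543, 0.584, 0 and 0.106 CPM in mutant libraries (log2 fold change -3.08 ± 0.756, adjusted p = 0.0143), and missed the threshold without wild-type replicate 4 (adjusted p = 0.0506). Car2, a carbonic anhydrase, was at 30.3 ± 8.48 CPM and 11.0 ± 1.53 CPM (SD, n = 4), without overlap (log2 fold change -1.46 ± 0.205, adjusted p = 0.00114). Of 15 further regulators 2 were called lower and 2 higher, which is near the shares of all genes called (15.3% and 14.0%). The 2 lower genes were Cbfa2t3, a corepressor that works with GATA1 (log2 fold change -0.86 ± 0.139, adjusted p = 0.00230), and Tal1, a helix-loop-helix partner of GATA1 that endothelium shares (log2 fold change -0.52 ± 0.141, adjusted p = 0.0221). Tal1 lost its call without wild-type replicate 3 or 4 or mutant replicate 1, 2 or 4 (adjusted p of 0.0545 to 0.0693).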

How the data were processed

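RNA of 3 pooled hearts per library was poly-A selected, and 4 libraries per genotype were sequenced. The authors deposited 1 table of raw counts per library, whole numbers per Ensembl gene that were not normalized. The submitters' processing notes name Trimmomatic 0.36, STAR 2.5.2b and GRCm38, and the counting tool and strand setting are not given in the sources used here. Identifiers were matched to GENCODE M21 symbols (48970 of 49315 genes), and 27 of the 29 members found had the same start and end there.

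Counts were fitted in R 4.3.3 with edgeR 4.0.16 (filterByExpr, TMM, glmQLFit and glmQLFTest, genotype as the only term), and p-values were adjusted by Benjamini-Hochberg over 17163 genes. The common dispersion was 0.0707. The steps were tested on simulated data. Libraries of the same genotype differed from each other by at least 11.0 times the sampling noise (chi-square per degree of freedom), so each counted as 1 replicate. Precision is limited by 4 libraries per genotype and, for members under about 1 CPM, by counting error.

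The members and lists were chosen with earlier results of these data known. Named genes were Tbx20, all members, the enzymes of heme synthesis, the 3 called genes with the largest change in each wider list, and the markers that were called or most abundant among other blood cells, and some of these are not reported here. Alternatives were other scalings, DESeq2 1.42.0, limma-voom 3.58.1, other filters, a replicate block, removal of the globins, leaving out each library and, added after seeing the data, an offset for gene length.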

Additional observations from a re-analysis of the deposited data

Results flagged for a closer look

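In 4 of 60 groups of 4 libraries examined, 1 library stood apart from the others by Dixon's test at the 95% level, which chance gives in about 1 of 20 groups. Epor was at 8.80 CPM in Tbx20EH1Mut replicate 1, above the other 3 mutant libraries. Urod was at 44.8 CPM in wild-type replicate 2, under the other wild-type libraries, and Ank1 was at 7.25 CPM in mutant replicate 3, under the other mutant libraries. Cldn13 was at 0.0776 CPM in mutant replicate 1, which is 3 counts, against 0 in the other 3 mutant libraries. With 3 libraries at 0 any other value is flagged, so the flag of Cldn13 cannot be set against the chance rate.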

How the results depend on the processing

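Of the 22 members called lower, 18 stayed called in every fit that left out a library and 19 in every other alternative that tested them. Requiring at least 10 counts in every library left 20 members, of which 14 were called lower (regulators 3, membrane and blood group genes 7), and moved the median log2 fold change to -0.78, since the members lowest in the mutant were not tested. Leaving out a library gave 18 to 22 lower members, 14 to 26 lower genes in the wider set, and over all genes 1496 to 3349 lower and 1436 to 3237 higher. Epor turned to 0.043 with upper-quartile scaling and ranged from -0.13 to 0.11 without a library, and Ppox turned to 0.049 with that scaling, to 0.014 with the gene length offset and ranged from -0.12 to 0.030 without a library. Urod turned to -0.014 with the gene length offset and ranged from -0.0013 to 0.11 without a library, and the cause was not tested. With a replicate block 20 members were called lower, and the calls of Epb41, Tmcc2, Uros, Kcnn4 and Piezo1 were lost. With upper-quartile scaling 19 members were called lower, and the calls of these genes and of Fech were lost. The call of Epb41 was also lost with library size alone and limma-voom, and that of Kcnn4 with library size alone. Uros lost its call with limma-voom, no filter and the gene length offset, and Piezo1 with limma-voom. Same-numbered libraries are not said to share a litter or a day. The deviations of same-numbered libraries correlated at -0.39, 0.39, 0.07 and 0.08, and 1 of 8 libraries correlated best with its own number. These few values cannot settle whether such libraries share more than a number. Depth limits the members with fewest counts, Cldn13 above all.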

Other observations

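Of the 70 wider red cell genes tested, 7 were called higher in the Tbx20EH1Mut hearts, a smaller share than the 14.0% of all genes tested, so the values below describe single genes and not the set. Bnip3l, which clears mitochondria from maturing red cells and is used in other tissues too, was at 149, 172, 167 and 142 CPM in wild-type replicates 1 to 4, against 335, 358, 421 and 351 CPM in mutant replicates 1 to 4, 2.33-fold higher in the means (log2 fold change 1.22 ± 0.119, adjusted p = 1.72e-04 by edgeR's quasi-likelihood test). Foxo3, a forkhead factor active in red cell maturation and stress, was at 33.9, 40.3, 28.4 and 29.7 CPM and 77.2, 71.1, 83.2 and 73.9 CPM (log2 fold change 1.21 ± 0.128, adjusted p = 2.65e-04). Neither overlapped between the genotypes, and both kept their calls in all 8 fits that left out a library.

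The other 5 that rose were Hmox1, the heme-degrading oxygenase (log2 fold change 0.85 ± 0.118, adjusted p = 0.00110), Slc2a1, a glucose transporter (log2 fold change 0.58 ± 0.139, adjusted p = 0.0125), Stat5b, a factor of cytokine signaling (log2 fold change 0.28 ± 0.0951, adjusted p = 0.0475), Cd47 (log2 fold change 1.0 ± 0.210, adjusted p = 0.00743) and Cd24a (log2 fold change 0.45 ± 0.0972, adjusted p = 0.00875), both surface proteins of many cell types. These 5 are named after their values were seen. All 7 are expressed in tissues without red cells, and the cells behind the rise were not measured.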
